A study of Mus musculus with 3 samples.

Results

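A set of 8 genes that encode transcriptional repressors (Prdm1, Bcl6, Bach1, Bach2, Zbtb46, Zbtb20, Zbtb16 and Zbtb7a) was followed through osteoclast differentiation by the methylation of CG cytosines in their spans. Members were every region of the authors' 3 tables that overlapped the GRCm38 RefSeq span of one of these 8 genes by at least 1 bp. This gave 409 distinct regions of 432641 in all, of which 207 lay in Zbtb20, 91 in Bach2, 32 in Zbtb16, 30 in Zbtb46, 27 in Prdm1, 13 in Bach1, 7 in Bcl6 and 2 in Zbtb7a.

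Bone marrow cells came from C57BL/6 mice 11 weeks old. Bone marrow macrophages (BMM) were marrow cells still floating after a day in culture, kept for 72 h in 50 ng/mL of M-CSF, a survival factor, without RANKL, the cytokine that induces osteoclasts. Preosteoclasts (pOC) were BMM given M-CSF at 30 ng/mL and RANKL at 100 ng/mL for 24 h, and mature osteoclasts (mOC) received the same for 72 h or more. Each stage had 1 library of whole-genome bisulfite sequencing, in which unmethylated cytosines are converted and methylated ones stay readable. The labels do not say whether animals were pooled.

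The tables hold no expression, so the labelled stages could not be checked by marker transcripts. With 1 library per stage no difference has a replicate check. The counts and levels below are descriptions of 3 libraries, and 95% intervals cover counting error only. A library averages all its cells, so a changed mix of cells and a change within cells cannot be told apart. The tables list only regions that differed by at least 20 percentage points with at least 4 cytosines and 4 reads per cytosine, so a difference in a listed region is how it came to be listed. In mOC against pOC the authors' p-value ran up to 0.0917, so the limit on it may differ between comparisons. Over the member regions the median depth was 31 to 35 reads per region and library, summed over cytosines.

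Prdm1 encodes Blimp1, a zinc finger repressor that in mouse osteoclast precursors shuts down genes opposing differentiation, among them Bcl6 and Irf8. The other 7 proteins carry a BTB domain, a protein interaction module that recruits corepressors such as Ncor1 and Bcor to DNA. Bcl6 restrains osteoclast genes in the mouse, Bach1 and Bach2 bind DNA through a leucine zipper with small Maf partners, and the Zbtb proteins bind through zinc fingers. Methylation of CG cytosines is usually low at active starts and enhancers and high over gene bodies.

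None of the listed regions overlapped a RefSeq promoter window (250 bases before to 50 after an annotated start, GRCm38.p6) of the 7 genes that had one. Of all 32851 such windows, 2.93% overlapped a region of the pOC against BMM table, 2.52% of the mOC against pOC table and 0.743% of the mOC against BMM table. The windows of 4 members are shown because they run from the median number of CG sites over all windows to a high one. With 8 member windows, holding none stood at the background share. In Bach2, Zbtb20, Prdm1 and Zbtb46 the only window lay at an annotated start well inside the span. The 5′ ends of those spans had no window, so neither the overlap nor the CG counts below describe them. Capitals mark each CG, and each window is written 5′ to 3′ on its gene's strand.
Bach2 (chr4:32417185-32417484, plus strand): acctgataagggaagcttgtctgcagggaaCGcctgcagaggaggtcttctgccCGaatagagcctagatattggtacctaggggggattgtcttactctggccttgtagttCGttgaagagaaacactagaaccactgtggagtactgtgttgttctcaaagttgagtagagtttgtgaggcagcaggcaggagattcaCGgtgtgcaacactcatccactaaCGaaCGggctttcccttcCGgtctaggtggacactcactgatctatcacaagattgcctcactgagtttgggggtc
Prdm1 (chr10:44458699-44458998, minus strand): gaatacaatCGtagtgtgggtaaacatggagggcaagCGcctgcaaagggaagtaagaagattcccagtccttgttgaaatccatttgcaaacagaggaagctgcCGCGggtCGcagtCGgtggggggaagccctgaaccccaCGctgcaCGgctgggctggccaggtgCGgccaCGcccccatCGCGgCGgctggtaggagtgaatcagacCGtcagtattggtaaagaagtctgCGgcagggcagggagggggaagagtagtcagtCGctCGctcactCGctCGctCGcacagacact
Bcl6 (chr16:23988803-23989102, minus strand): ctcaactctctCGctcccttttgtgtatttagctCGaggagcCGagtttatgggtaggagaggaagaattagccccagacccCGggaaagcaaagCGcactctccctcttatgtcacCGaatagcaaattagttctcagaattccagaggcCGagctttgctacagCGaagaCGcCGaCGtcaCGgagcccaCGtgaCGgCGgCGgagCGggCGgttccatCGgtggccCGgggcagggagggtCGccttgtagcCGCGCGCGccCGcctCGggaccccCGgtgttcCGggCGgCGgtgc
Bach1 (chr16:87698704-87699003, plus strand): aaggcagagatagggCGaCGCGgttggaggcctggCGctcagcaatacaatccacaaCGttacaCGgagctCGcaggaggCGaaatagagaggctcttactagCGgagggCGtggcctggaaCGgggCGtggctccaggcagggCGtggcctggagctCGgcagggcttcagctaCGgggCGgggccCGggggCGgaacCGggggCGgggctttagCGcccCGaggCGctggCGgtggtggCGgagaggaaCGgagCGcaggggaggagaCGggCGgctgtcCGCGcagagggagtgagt
The Bach2 window held 7 CG sites, which was the median over all windows, the Prdm1 window held 20, and the Bcl6 and Bach1 windows held 31 each, more than or as many as 90.5% of all windows. Those not shown held 31 in Zbtb7a, 14 in another Bcl6 window, 3 in Zbtb20 and 1 in Zbtb46. The letters TGANTCA, the AP-1 motif searched on either strand, occurred in the Prdm1 and Zbtb46 windows and in 7.81% of all windows.

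Listed regions began outside these windows. The closest (chr4:32416403-32416802) lay 633 bp from an annotated Bach2 start inside the gene, and 178189 bp from the 5′ end of the span. It stood at 89.3% in BMM (56 reads) and 52.5% in pOC (61 reads). In Bcl6 the closest region lay 1283 bp from a start (chr16:23979801-23980000), at 91.7% in BMM (24 reads), 68.6% in pOC (35 reads) and 96.4% in mOC (28 reads). In Zbtb46 it lay 1787 bp away (chr2:181422402-181422601), at 94.8%, 74.3% and 96.1% in BMM, pOC and mOC (58, 35 and 51 reads). Both of these regions had their lowest level in pOC. They lay near starts inside their genes, 8966 bp (Bcl6) and 70761 bp (Zbtb46) from the 5′ end of the span.

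In Zbtb20 the closest region lay 1484 bp from a start (chr16:43245601-43245800), at 93.8% in BMM (32 reads) and 64.0% in pOC (25 reads). In Bach1 it lay 2047 bp away (chr16:87701001-87701200), at 70.7% in BMM (58 reads) and 46.2% in pOC (39 reads). In Prdm1 it lay 2148 bp away (chr10:44456401-44456600), at 70.6% in pOC and 94.1% in mOC (17 reads each). The interval of this Prdm1 difference, -3.03 to 47.7 points with reads summed over cytosines, included 0. The Zbtb20 and Prdm1 regions also lay near starts inside the gene, 370011 and 72058 bp from the 5′ end of the span. Zbtb7a had no listed region within 12930 bp of a start, and Zbtb16 had no window to measure from.

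The first comparison, pOC against BMM, asked what differed after 24 h of RANKL. M-CSF also went from 50 to 30 ng/mL and time in culture was longer, here and in mOC against BMM. These cannot be told apart from RANKL. All 8 genes held a listed region, as did 65.7% of 21900 protein-coding genes and 78.4 to 96.5% of those with a span like that of a member. Of 264 regions, 253 (95.8%, interval 92.7 to 97.9) were lower in pOC and 11 higher. Over all 251946 listed regions 92.9% were lower and 7.06% higher, and over those in protein-coding spans 95.3%, so the members' share stood near its background. The read-weighted level over the member regions was 79.0% in BMM and 51.8% in pOC.

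**Figure D1:**
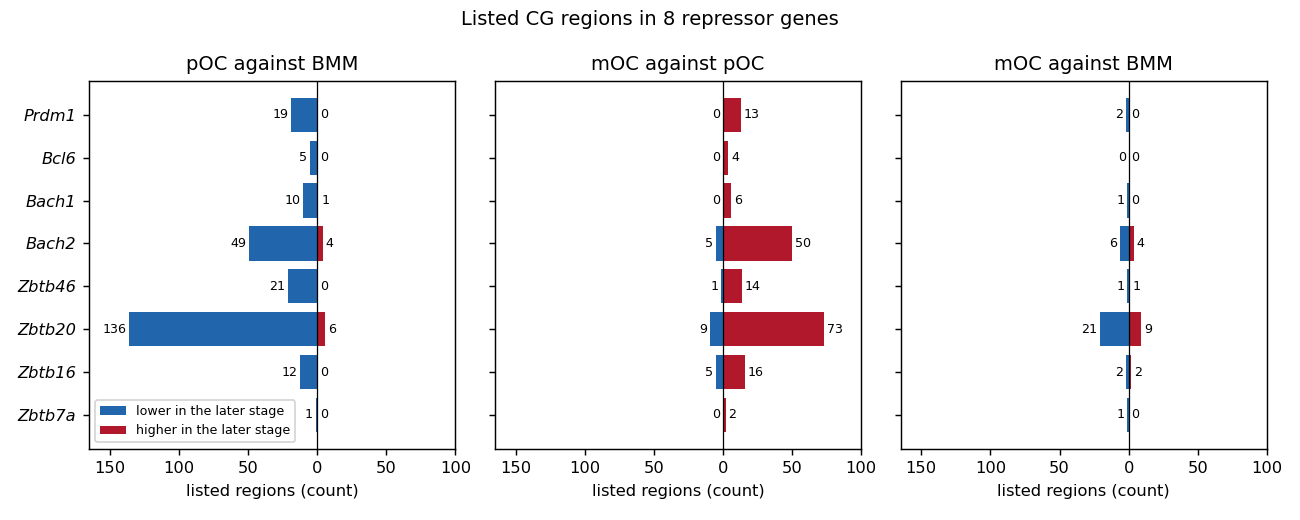
Listed regions in each gene, counted by direction, for the 3 comparisons; bars to the left of 0 are regions lower in the later stage and bars to the right are higher ones. Zbtb20 holds 136 lower and 6 higher regions in pOC against BMM and 73 higher and 9 lower ones in mOC against pOC.

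Regions were counted against gene length to set short and long genes side by side. Zbtb20, a zinc finger repressor of many tissues that spans 759 kb, held 18.7 listed regions per 100 kb in pOC against BMM, against 8.10 in the 373 protein-coding genes of 0.5 to 2 times its span. Bach1, which represses the heme oxygenase gene Hmox1 and is released by heme, held 32.0 per 100 kb, against 16.4 in genes of like span. Zbtb16, known as PLZF and needed by natural killer T cells, held 6.51 against 13.7. The densities of the genes thus ranged on both sides of those of like span. Prdm1 (20.8 against 15.8), Bcl6 (21.0 against 16.0), Bach2 (15.2 against 11.1) and Zbtb46 (17.2 against 15.1) stood above genes of like span, and Zbtb7a (5.88 against 15.4), with 1 region, below. In mOC against pOC, Bach2 (15.8 against 9.52) and Zbtb20 (10.8 against 7.33) stood above and Zbtb16 (11.4 against 11.4) and Zbtb46 (12.3 against 12.4) level with genes of like span. Bach1 (17.4 against 13.7, 6 regions), Bcl6 (16.8 against 13.7, 4 regions) and Prdm1 (14.2 against 12.9, 13 regions) also stood above. Zbtb7a (11.8 against 13.4, 2 regions) stood below. In mOC against BMM, Zbtb20 (3.95 against 2.33) and Zbtb7a (5.88 against 3.44, 1 region) stood above and Bach2 (2.88 against 2.81) level. Prdm1 (2.19 against 3.56, 2 regions), Zbtb46 (1.64 against 3.46, 2 regions) and Bcl6 (0 against 3.55, no region) stood below. So did Bach1 (2.91 against 3.65, 1 region) and Zbtb16 (2.17 against 3.23, 4 regions). Apart from Zbtb20 and Bach2 these densities rest on few regions, and 51.8% of genes with a span like that of Bcl6 held one.

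**Figure D2:**
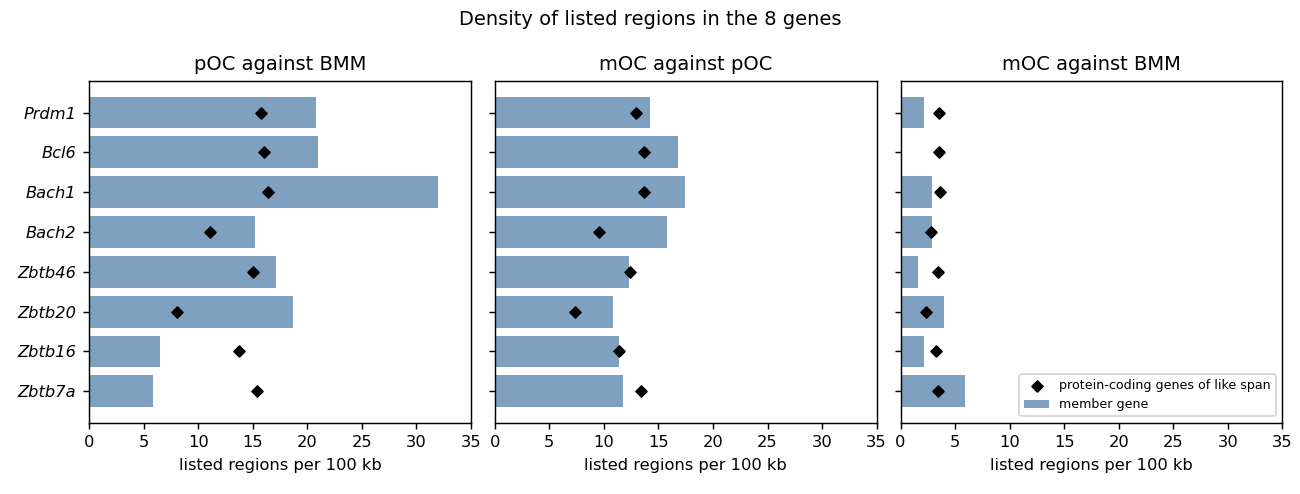
Listed regions per 100 kb of gene span in the 3 comparisons; bars are the 8 genes and diamonds the protein-coding genes of 0.5 to 2 times the span of each. Bach1 and Zbtb20 stand above their diamonds in pOC against BMM, and Zbtb16 below.

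In Prdm1 all 19 regions were lower in pOC, by 20.3 to 57.7 points. Its greatest difference (chr10:44466401-44466600) ran from 85.0% in BMM (interval 62.1 to 96.8, 20 reads) to 27.3% in pOC (10.7 to 50.2, 22 reads), a difference of 57.7 points (28.1 to 74.9). Fisher's exact test of the reads of these libraries gave p = 0.000219 (two-sided, adjusted p = 0.00127 over the whole table), and p = 0.0300 with reads counted once per strand. This test compares 2 libraries, over regions the authors had chosen for their difference. Each region given a p-value, here and below, was also its gene's widest gap in that comparison. A small p-value thus follows partly from that choice and is no evidence of a difference between stages. By position, 8 of the 19 lay in the 3′-most 20% of the span.

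Bcl6 held 5 regions, all lower in pOC, and its levels started highest. Read-weighted, they stood at 94.0% in BMM and 70.9% in pOC. The widest gap (chr16:23975201-23975400) was 97.6% in BMM (42 reads) against 71.4% in pOC (35 reads). Of the Bcl6 differences none exceeded 26.2 points, the smallest maximum among the 8 genes.

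Bach1 held 10 lower regions and 1 higher one. Its widest gap (chr16:87717801-87718000) lay between 96.2% in BMM (26 reads) and 58.8% in pOC (34 reads). The higher region (chr16:87707001-87707200) stood at 72.7% in BMM (33 reads) and 93.5% in pOC (31 reads). Bach2, a repressor that holds B cells back from becoming plasma cells and there opposes Prdm1, held 49 lower and 4 higher regions. At its widest gap (chr4:32585003-32585202) it stood at 90.6% in BMM (75.0 to 98.0, 32 reads) and 34.8% in pOC (16.4 to 57.3, 23 reads). Of the 4 higher Bach2 regions, 3 stood at 22.2 to 23.4% in BMM and 47.1 to 57.9% in pOC, so they were poorly methylated at the outset.

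Zbtb46, a factor that marks classical dendritic cells, had 21 regions, all lower in pOC. The widest gap was 72.4% in BMM (29 reads) against 33.3% in pOC (27 reads) at chr2:181395602-181395801. Zbtb16 had 12, all lower, with 88.2% in BMM (17 reads) against 43.8% in pOC (16 reads) at chr9:48703401-48703600. Zbtb7a, also named LRF, directs lymphoid progenitors toward the B cell fate, and had 1 region in this comparison. It lay at chr10:81151201-81151400 and stood at 93.5% in BMM (78.6 to 99.2, 31 reads) and 34.6% in pOC (17.2 to 55.7, 26 reads), with p = 2.58e-06 by Fisher's exact test and 0.00310 with reads counted once per strand.

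Zbtb20 held 142 of the 264 regions, 136 lower and 6 higher. Its widest gap (chr16:43569201-43569400) was also the widest among the 8 genes in this comparison. It ran from 100% in BMM (89.4 to 100, 33 reads) to 33.3% in pOC (15.6 to 55.3, 24 reads), and Fisher's exact test gave p = 1.27e-08, or 0.00482 with reads counted once per strand. With the span cut into 5 equal parts from the 5′ end, the parts held 22, 18, 21, 40 and 41 of the 142, so the regions were denser toward the 3′ end. A higher Zbtb20 region (chr16:43204801-43205000) stood at 60.6% in BMM (33 reads) and 97.3% in pOC (37 reads).

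A read covering several cytosines enters the deposited sums several times. With reads counted once per strand, the interval of the difference excluded 0 in 63 of the 264 regions (23.9%), against 25.8% of all listed regions. In protein-coding spans the share was 27.5%. Of those 63, 42 lay in Zbtb20, 8 in Bach2, 5 in Prdm1, 2 each in Bach1, Zbtb46 and Zbtb16, and 1 each in Bcl6 and Zbtb7a. The members were near the background in this respect as well.

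**Figure D3:**
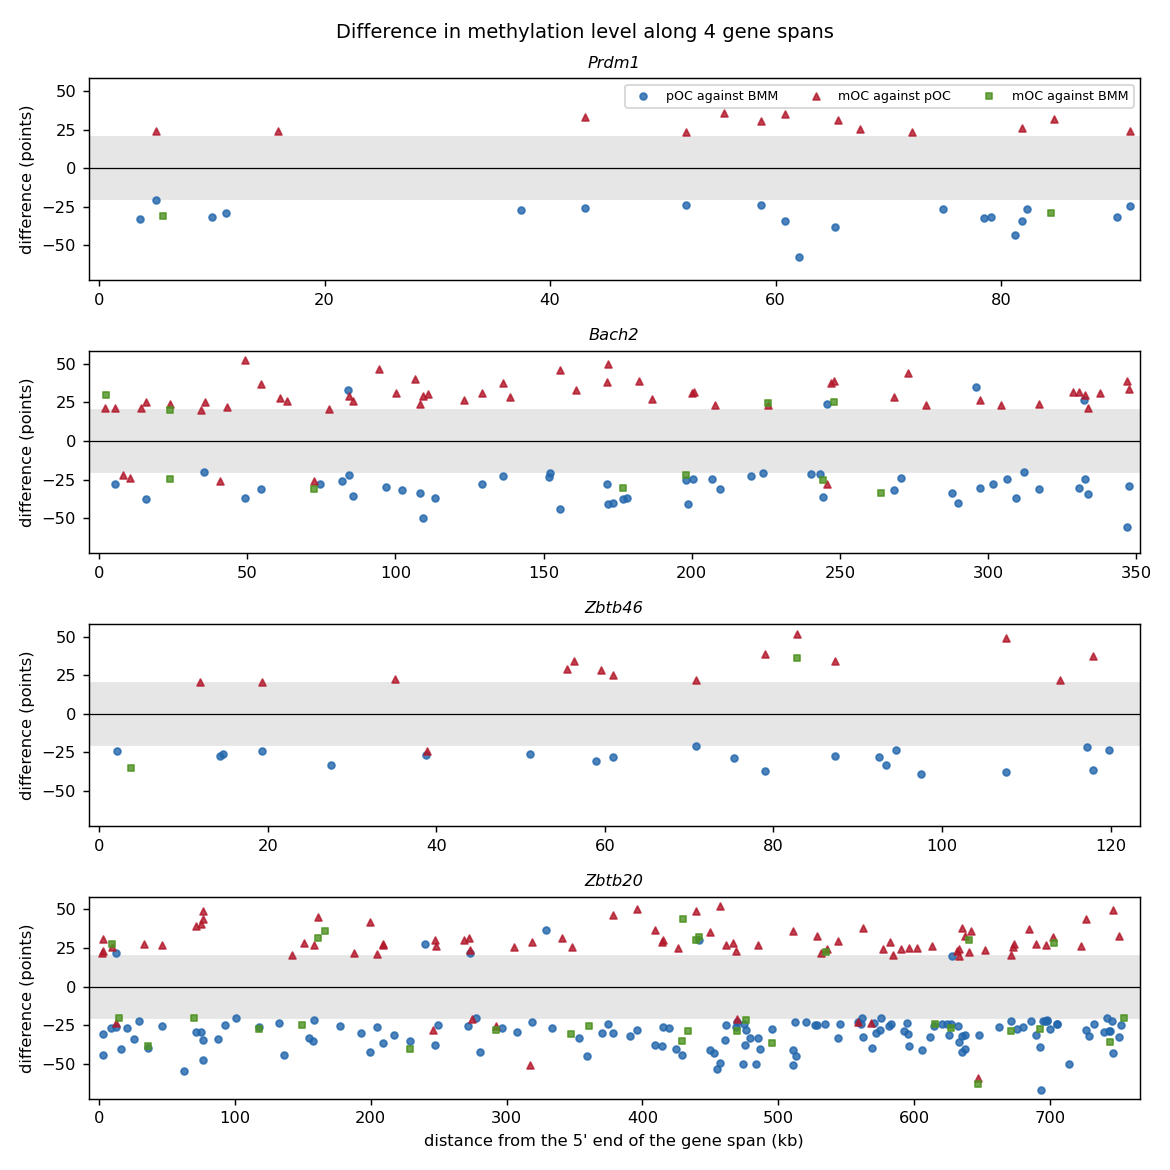
Difference in methylation level (later minus earlier stage, percentage points) of each listed region against its position in Prdm1, Bach2, Zbtb46 and Zbtb20, as distance from the 5′ end of the span in kb, by comparison; the grey band from -20 to 20 points holds no regions because none were listed there. Points of pOC against BMM lie mostly below the band and points of mOC against pOC mostly above it.

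The second comparison, mOC against pOC, asked what differed between 24 h and at least 72 h of RANKL. It shares the pOC library with the first, so a low value in that library enters both. All 8 genes again held a listed region, beside 65.5% of protein-coding genes and 78.7 to 96.5% of those of like span. Of 198 regions, 178 (89.9%, interval 84.8 to 93.7) were higher in mOC and 20 lower, against 89.1% higher and 10.9% lower over all 226632 listed regions. In protein-coding spans 91.6% were higher. The read-weighted level was 49.6% in pOC and 73.1% in mOC. The interval excluded 0 with reads counted once per strand in 35 regions (17.7%, against 18.3% of all and 19.3% in protein-coding spans). With reads as deposited it excluded 0 in 164 of the 198, against all 264 in pOC against BMM and all 50 in mOC against BMM. The authors' p-value was 0.05 or less in 157 of the 198, so counts are not on one footing across the comparisons.

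Every one of the 13 Prdm1 regions was higher in mOC, by 23.5 to 35.6 points. The widest gap was 20.7% in pOC (29 reads) against 56.2% in mOC (16 reads) at chr10:44473001-44473200. No Prdm1 region had an interval excluding 0 with reads counted once per strand. Bcl6 had 4 regions, all higher, reaching 61.4% in pOC (44 reads) against 96.0% in mOC (50 reads) at chr16:23967001-23967200. Bach1 had 6, all higher, with 36.8% in pOC (38 reads) against 74.2% in mOC (31 reads) at chr16:87724001-87724200.

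In Bach2, Zbtb46 and Zbtb20 the share of lower regions was near the 10.9% of all listed regions. Bach2 had 50 higher and 5 lower regions and at chr4:32287603-32287802 stood at 26.1% in pOC and 78.3% in mOC (23 reads each). Zbtb46 had 14 higher and 1 lower, and at chr2:181410402-181410601 it stood at 31.6% in pOC (19 reads) and 83.3% in mOC (18 reads). Zbtb20 had 73 higher and 9 lower, and its widest gap was one of the lower ones: 81.2% in pOC (16 reads) against 22.2% in mOC (18 reads) at chr16:43522401-43522600. Zbtb16 had 16 higher and 5 lower. Its widest gap was 41.2% in pOC (17 reads) against 83.3% in mOC (18 reads) at chr9:48833601-48833800. Zbtb7a had 2 regions, both higher, and the one it shared with the first comparison stood at 34.6% in pOC and 72.0% in mOC (25 reads).

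The third comparison, mOC against BMM, gave the net difference. It listed 50 member regions, 34 lower (68.0%, interval 53.3 to 80.5) and 16 higher, against 58.9% lower and 41.1% higher over all 69337 listed regions and 63.3% in protein-coding spans. Of the genes, 7 held a region, and Bcl6 held none. The share was 43.9% over protein-coding genes, and over those of like span it ran from 42.1% for Zbtb7a and 51.8% for Bcl6 to 94.7% for Bach2 and 96.0% for Zbtb20. Zbtb20 held 30 of the 50 (21 lower, 9 higher), Bach2 10 (6 lower, 4 higher), Zbtb16 4 (2 and 2), Prdm1 2 (both lower), Zbtb46 2 (1 and 1), and Bach1 and Zbtb7a 1 each (both lower). With reads counted once per strand the interval excluded 0 in 12 (24.0%, against 14.9% of all and 15.2% in protein-coding spans). Of these 12, 9 lay in Zbtb20.

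Both Prdm1 regions were lower in mOC. One (chr10:44522801-44523000) stood at 59.0% in BMM (39 reads) and 28.0% in mOC (25 reads), and the other (chr10:44444001-44444200) at 92.3% in BMM (26 reads) and 63.2% in mOC (19 reads). Neither interval excluded 0 with reads counted once per strand. In Zbtb20 the region chr16:43522401-43522600 stood at 85.2% in BMM (27 reads) and 22.2% in mOC (18 reads), with p = 3.55e-05 by Fisher's exact test and 0.00661 with reads counted once per strand. Zbtb16 at chr9:48720601-48720800 stood at 91.7% in BMM (24 reads) and 43.6% in mOC (39 reads), and Bach2 at chr4:32502203-32502402 at 77.4% in BMM (31 reads) and 43.8% in mOC (16 reads). The single Bach1 region, chr16:87704201-87704400, stood at 100% in BMM (25 reads) and 78.3% in mOC (23 reads).

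A region listed in more than one table has a level at all 3 stages, which was the case for 102 of the 409. The commonest course was low in pOC alone: 74 regions were lower in pOC than in BMM and higher in mOC than in pOC, and read-weighted they stood at 78.5% in BMM, 47.2% in pOC and 78.6% in mOC. The mOC level was below that of BMM in 34 of them, above it in 39 and equal in 1, with a median difference of 1.10 points and a range of -20.8 to 16.1. Regions of this course that were also listed in the third table, as 1 of Zbtb7a was, are not among the 74, so the closeness of mOC and BMM is partly how the group is defined. Low in pOC alone thus does not mean a full return to the BMM level in each region. The interval of mOC minus BMM excluded 0 in 4 of the 74 with reads as deposited, and in 0 once per strand. Counting the Zbtb7a region, 75 of the 253 regions lower in pOC were also higher in mOC (29.6%, and 42.1% of the 178 higher in mOC), against 33.6% and 38.9% over all listed regions.

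**Figure D4:**
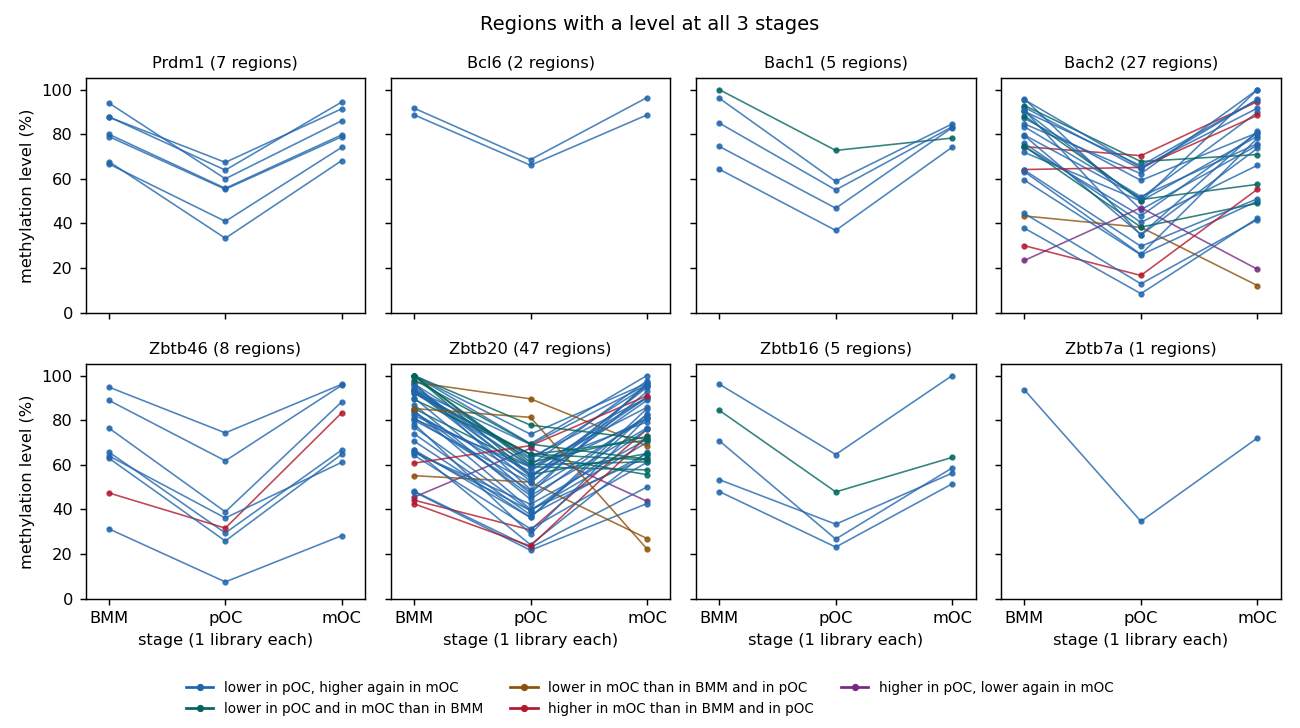
Methylation level (percent) in BMM, pOC and mOC of every member region listed in at least 2 tables, 1 line per region and 1 panel per gene. Lines that are low in pOC alone make up 74 of 102.

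In Prdm1 all 7 such regions took this course, at 80.3% in BMM, 54.6% in pOC and 81.7% in mOC together. The region nearest the 5′ end of the span (chr10:44523401-44523600) stood at 87.7%, 67.4% and 91.4% (65, 95 and 93 reads). The next (chr10:44485401-44485600) stood at 66.7%, 40.9% and 74.1% (75, 66 and 58 reads), and chr10:44476401-44476600 at 78.9%, 55.3% and 78.8% (38, 47 and 52 reads). In each the pOC library was lowest.
Farther toward the 3′ end, chr10:44469801-44470000 stood at 87.8%, 63.9% and 94.4% (41, 36 and 18 reads), and chr10:44467601-44467800 at 67.7%, 33.3% and 68.2% (31, 42 and 44 reads). Toward the end of the gene chr10:44446601-44446800 stood at 94.0%, 60.0% and 86.0% (50, 30 and 43 reads), and the region over the gene's end, chr10:44437001-44437200, at 80.0%, 55.7% and 79.7% (40, 61 and 69 reads). Across the 7 regions the BMM and mOC levels differed by 7.95 points or less.

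The 2 Bcl6 regions behaved alike. One was the region nearest a start given above, and the other (chr16:23975801-23976000) stood at 88.7%, 66.1% and 88.6% (53, 56 and 44 reads). In Bach1, 4 regions took the course. The one with most reads (chr16:87714001-87714200) stood at 85.0%, 55.0% and 83.3% (40, 60 and 60 reads), with chr16:87709201-87709400 at 74.5%, 46.8% and 82.9% (55, 47 and 41 reads). The other two, the widest gaps named above, stood at 96.2%, 58.8% and 84.6% (chr16:87717801-87718000) and at 64.3%, 36.8% and 74.2% (chr16:87724001-87724200). The fifth Bach1 region (chr16:87704201-87704400) was the exception, at 100%, 72.7% and 78.3%, lower than BMM at both later stages.

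In Zbtb46, 7 of 8 regions were low in pOC alone. The region with the lowest level at every stage (chr2:181473802-181474001) stood at 31.2%, 7.46% and 28.2% (32, 67 and 39 reads). The remaining ones besides the region near a start began at 63.0 to 88.9% in BMM, stood at 25.8 to 61.8% in pOC and at 61.1 to 95.7% in mOC. They were chr2:181375202-181375401 (65.7%, 29.4% and 66.7%), chr2:181385602-181385801 (76.5%, 38.9% and 88.2%), chr2:181405802-181406001 (88.9%, 61.8% and 95.7%), chr2:181414202-181414401 (63.0%, 25.8% and 64.7%) and chr2:181432202-181432401 (64.0%, 36.1% and 61.1%), on 17 to 36 reads each. The exception, chr2:181410402-181410601, stood at 47.4%, 31.6% and 83.3% and was higher in mOC than at both earlier stages.

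In Zbtb16, 4 of 5 regions were low in pOC alone. The one with most reads (chr9:48816401-48816600) stood at 70.8%, 26.7% and 58.6% (89, 60 and 99 reads), and its mOC level was lower than that of BMM. The others were chr9:48738801-48739000 (96.2%, 64.6% and 100%), chr9:48780801-48781000 (53.3%, 33.3% and 56.2%) and chr9:48752801-48753000 (48.0%, 23.1% and 51.4%). A region lower at both later stages, chr9:48715201-48715400, stood at 84.4%, 47.8% and 63.3% (77, 69 and 79 reads). The Zbtb7a region stood at 93.5%, 34.6% and 72.0% and was the 1 member region listed in all 3 tables.

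Bach2 had 27 regions in at least 2 tables, 19 of them low in pOC alone. Of the 5 with most reads, 4 took this course: chr4:32409603-32410002 (79.6%, 51.5% and 89.8%, on 103, 103 and 98 reads), chr4:32367403-32367602 (92.0%, 64.3% and 95.5%), chr4:32322803-32323002 (71.8%, 50.0% and 79.1%) and chr4:32324003-32324202 (75.9%, 40.4% and 66.0%). The fifth, chr4:32436203-32436402, stood at 92.9%, 67.7% and 70.9% (112, 93 and 79 reads), lower at both later stages. Zbtb20 had 47, of which 31 were low in pOC alone and 9 lower at both later stages. Among its 5 with most reads, 3 were low in pOC alone: chr16:43438401-43438600 (92.3%, 59.7% and 97.7%), chr16:43404401-43404600 (82.2%, 57.1% and 90.2%) and chr16:43194401-43194600 (65.5%, 42.3% and 71.4%). The other two were lower in mOC than in BMM: chr16:43503001-43503200 stood at 89.3%, 64.8% and 62.2% (84, 71 and 82 reads), and chr16:43345601-43345800 at 97.0%, 89.6% and 68.4% (100, 67 and 76 reads).

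The remaining courses were fewer. Over the 8 genes, 14 regions were lower than BMM at both later stages (91.2% in BMM, 59.9% in pOC and 63.6% in mOC), 9 of them in Zbtb20, 3 in Bach2 and 1 each in Bach1 and Zbtb16. With the Zbtb7a region, 15 of the 253 regions lower in pOC were lower in mOC than in BMM (5.93%, and 44.1% of the 34), against 6.2% and 35.5% over all listed regions. Another 7 were higher in mOC than at both earlier stages (52.1%, 46.1% and 77.8%), 3 each in Bach2 and Zbtb20 and 1 in Zbtb46. These were 7 of the 16 regions higher in mOC than in BMM (43.8%), against 40.4% over all listed regions. There were 4 regions lower in mOC than at both (77.7%, 70.0% and 43.8%), 3 in Zbtb20 and 1 in Bach2, which made 11.8% of the 34 lower in mOC than in BMM, against 11.6% over all. The last 2, 1 each in Bach2 and Zbtb20, were highest in pOC and made 18.2% of the 11 regions higher in pOC, against 20.2% over all. None of the 11 was also higher in mOC than in BMM, against 12.3% over all. No member region was listed in the same direction in both step tables, which over all listed regions held for 0.0406% of those lower in pOC and 0.242% of those higher in pOC.

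The genes around these repressors were counted in the same tables. Among 42 other BTB zinc finger genes, 34 held a region in pOC against BMM, with 207 regions lower and 3 higher, and 34 held one in mOC against pOC, with 192 higher and 9 lower. Zbtb7c held 24 lower and 2 higher of the first and Zbtb38 17 lower. Among 14 other PRDM genes, 158 regions were lower and 8 higher in pOC, and 147 higher and 15 lower in mOC than in pOC. Mecom, a PRDM gene of blood stem cells, held 40 of the lower ones and Prdm10 held 39. A list of corepressors, partners and related regulators numbered 26 genes, of which 20 held a region, 359 lower and 13 higher in pOC and 288 higher and 23 lower at the next step. Hdac9, a histone deacetylase gene, held 154 of the lower ones and Ncor1, a nuclear receptor corepressor gene, 37. In mOC against BMM the BTB list had 25 lower and 10 higher regions, the PRDM list 29 and 15, and the corepressor list 61 and 23. Their lower shares were 71.4%, 65.9% and 72.6%, against 58.9% over all listed regions and 63.3% in protein-coding spans. In pOC against BMM the lower shares of the BTB, PRDM and corepressor lists were 98.6%, 95.2% and 96.5%. This share was 92.9% over all listed regions and 95.3% in protein-coding spans. In mOC against pOC the higher shares of the BTB, PRDM and corepressor lists were 95.5%, 90.7% and 92.6%. Over all listed regions this share was 89.1%, and in protein-coding spans 91.6%. Of protein-coding genes, 65.7% held a region in pOC against BMM and 65.5% in mOC against pOC.

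Of 24 genes known as targets of Prdm1, Bcl6, Bach1 or Bach2, 17 held a region in pOC against BMM, with 86 lower and 5 higher. Slc7a11, a cystine transporter gene repressed by Bach1, held 25 lower and 2 higher of these. At the next step the targets had 75 higher and 8 lower regions in 18 genes, and in mOC against BMM 16 lower and 13 higher in 15 genes. Their shares in the main direction, 94.5% lower, 90.4% higher and 55.2% lower, stood near the 92.9%, 89.1% and 58.9% of all listed regions. Over protein-coding genes, 65.7%, 65.5% and 43.9% held a region in these comparisons. Upstream of Prdm1 in RANK signalling, 8 of 10 genes held 109 lower and 2 higher regions in pOC, among them Mitf, a transcription factor of osteoclasts and melanocytes, with 42 lower and 2 higher, Nfkb1, an NF-kappa B subunit gene, with 27 lower, and Tnfrsf11a, which encodes RANK itself, with 10 lower. The lower share was 98.2%, against 92.9% over all listed regions, and 65.7% of protein-coding genes held a region.

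Marker genes of other cells that a marrow culture could hold had listed regions too. In pOC against BMM these were 46 lower and 7 higher for B cells, 15 lower for T cells, 19 lower for dendritic cells, 1 lower for neutrophils and 78 lower for stromal cells, beside 25 lower and 1 higher for osteoclasts and 48 lower for macrophages. Of the stromal regions 77 lay in Runx2 alone. The lower shares ran from 86.8 to 100%, against 92.9% over all listed regions. The part of cell mix in the member regions was not tested.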

How the data were processed

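Whole-genome bisulfite sequencing of 1 library per stage gave 3 tables of regions, 1 per pair of stages. Per the file headers each row holds a region, its cytosine count, the deposited counts of methylated and of all reads summed over cytosines in either library, the methylation levels as a fraction, and a p-value. The submitters' processing notes name FastQC, HISAT2, StringTie and GRCm38 with no role; which programs aligned the bisulfite reads and called regions was not given in the sources used here. Coordinates are GRCm38.

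Gene spans, promoter windows and strands came from RefSeq. All 8 members matched by symbol, and 7 had a promoter window. Levels were methylated over all reads, with 95% Clopper-Pearson intervals; differences had Newcombe intervals. Fisher's exact test was adjusted by Benjamini-Hochberg over each whole table. The once per strand version divided the reads by the cytosines and multiplied by 2 strands. Tests compare libraries, not conditions. Python 3.11.15, pandas 2.3.3, numba 0.67.0 and scipy 1.17.1 were used. The intervals and tests were tested on simulated data with independent reads and no choice of regions by their difference. That check therefore does not cover reads that enter several times or the authors' choice of regions.

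Members and lists were chosen with earlier results of these data known. Named regions were each member's widest difference per table, regions in at least 2 tables (the 5 with most reads where a gene had over 10) and the region nearest an annotated start. List genes were named from those with the most regions, and likeness to Prdm1 was the Euclidean distance over 6 densities of regions per 100 kb. Alternatives were a larger difference, more reads, a smaller deposited p-value, 5000 bp flanks, regions inside spans, no Zbtb20, and reads counted as deposited or once per strand.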

Additional observations from a re-analysis of the deposited data

How the results depend on the processing

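In pOC against BMM the 264 member regions became 120 at a difference of at least 30 points, 37 when the authors' p-value had to be 0.001 or less, and 122 without Zbtb20; the 63 with an interval excluding 0 once per strand became 264 with reads as deposited and 21 without Zbtb20. In mOC against pOC the 198 became 78, 14 and 116, the share lower in mOC moved from 10.1% to 2.56% and 0%, and the 35 became 164 and 18. In mOC against BMM the 50 became 20, 1 and 20, the share lower moved from 68.0% to 100% (1 region), and the 12 became 50 and 3. The 77 regions in both step tables became 27 at 30 points in both and 45 without Zbtb20. Fewer regions pass a stricter limit by construction. Of 54 alternatives for counts and shares, 34 stayed within 1.5 times or within the interval. Of 23 named regions, Fisher's exact test gave p of at most 0.05 in 22 as deposited and in 8 once per strand. These 23 were each gene's widest gap per comparison, picked on the same reads, so small p-values follow partly from the choice. Leaving out regions that also overlap another gene (238, 185 and 44 regions) and, in mOC against pOC, requiring the authors' p-value to be 0.05 or less (157 regions) were chosen after seeing the data. No paired analysis was possible because each stage has 1 library, and no library could be left out. Differences under 20 points are not in the tables, and reads without molecular identifiers are not independent molecules.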

Other observations

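A pair of neighbouring Bach2 regions differed in opposite directions between mOC and BMM. At chr4:32262203-32262402 the level was 74.4% in BMM (43 reads) and 94.6% in mOC (37 reads), and in the adjoining chr4:32262403-32262602 it was 73.9% in BMM (46 reads) and 49.1% in mOC (53 reads). Zbtb16 held a pair of regions that were poorly methylated in BMM and higher in mOC. One (chr9:48758601-48758800) stood at 3.70% in BMM (27 reads) and 31.0% in mOC (29 reads), and the other (chr9:48786801-48787000) at 13.9% and 36.1% (36 reads each). These regions were chosen after their values were seen. With reads counted once per strand, none of these Bach2 and Zbtb16 intervals excluded 0.

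Other genes lie inside the spans. In pOC against BMM, 8 of the Zbtb20 regions also overlapped Gm9968, 8 overlapped Gm19522 and 2 overlapped Tigit, an inhibitory receptor gene of T cells, and 3 of the Bach2 regions overlapped Bach2os. Of 4072 genes of like span, those nearest Prdm1 in their 6 densities of listed regions were Chsy1, a chondroitin synthase gene (distance 1.19), Spag1 (1.21) and Tet3, which encodes an enzyme that oxidises methylated cytosine (1.29).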
